A study of Mus musculus with 6 samples.

Results

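Thalamic marker genes are described here in hippocampal RNA, pool by pool. They are Prkcd, Slc17a6, Tnnt1, Rora, Rgs16, Plekhg1, Gbx2, Lhx9, Shox2 and Zic1, 10 of the 19938 genes that the array reads with a probe set of their own. The members were chosen by name, with the difference between ethanol and saline pools on these same arrays already in view. That difference is therefore given for them as a description and without a test. Each of the 10 genes has 1 probe set.

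The arrays came from the hippocampus of male C57Bl/6J mice killed at 70 days of age. Ethanol-treated pups had received 2 subcutaneous injections of 2.5 g/kg ethanol in saline on postnatal day 4 and again on postnatal day 7, and control pups had received saline on the same schedule. RNA of 3 male mice from different litters was pooled for each array, with 3 arrays per group, so that 9 mice stand behind each group and 18 behind the data. A pool hides the animals within it, and 1 mouse with a high level cannot be told from 3 with moderate levels. The authors summarized the probes of each gene with RMA and deposited log2 values, on which a difference of 1 is a doubling. The lowest correlation between any pair of arrays was 0.997 (across genes, which are no replicates). Each mouse entered 1 pool, and SDs and p-values measure the spread between pools, not between mice. The tissue label was set beside 18 marker genes of hippocampal granule and pyramidal neurons, and 18 of 18 lay above the level of olfactory and vomeronasal receptor genes. The 95th percentile of those receptor genes, 5.37, is used here as the level of dim probe sets. Over all genes, only 7505 of 19938 lay below it, and of 15 choroid plexus genes 0 did. This count therefore does not tell hippocampus from other tissue. In whole tissue, more cells of one type and more RNA per cell cannot be told apart.

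The thalamus lies beneath the hippocampus and relays sensory and motor signals to the cortex. Its excitatory neurons load glutamate into vesicles with VGLUT2, the product of Slc17a6, whereas the principal neurons of the hippocampus mainly use VGLUT1, the product of Slc17a7. Homeobox and zinc finger transcription factors pattern the thalamus in the embryo, and several of them stay on in subsets of its adult neurons. None of the 10 markers is restricted to the thalamus: Rora is also found in the cerebellum and cortex, Zic1 in the septum, cerebellum and meninges, and Prkcd in the lateral septum and central amygdala.

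Promoters are shown for 4 members, Prkcd and Shox2, whose ethanol pool 1 stood highest above saline, and Gbx2 and Lhx9, which did not share that pattern. RefSeq windows (build GRCm38.p6) were available for 10 of the 10 members, and the 250 bases before each transcript start are given 5′ to 3′. Capitals mark the core bound by TCF/LEF factors, CTTTGA on either strand, and no other motif was found in these 4.
Prkcd promoter, chr14:30626209-30626458, minus strand: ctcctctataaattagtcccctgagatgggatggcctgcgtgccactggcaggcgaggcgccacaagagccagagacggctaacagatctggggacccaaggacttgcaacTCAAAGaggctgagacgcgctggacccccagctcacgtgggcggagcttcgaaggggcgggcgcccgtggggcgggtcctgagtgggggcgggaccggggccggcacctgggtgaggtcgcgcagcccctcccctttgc
Shox2 promoter, chr3:66981772-66982021, minus strand: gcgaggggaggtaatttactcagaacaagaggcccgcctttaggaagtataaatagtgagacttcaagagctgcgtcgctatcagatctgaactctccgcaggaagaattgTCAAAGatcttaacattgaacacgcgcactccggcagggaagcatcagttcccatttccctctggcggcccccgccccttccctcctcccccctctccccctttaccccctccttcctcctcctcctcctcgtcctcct
Gbx2 promoter, chr1:89931177-89931426, minus strand: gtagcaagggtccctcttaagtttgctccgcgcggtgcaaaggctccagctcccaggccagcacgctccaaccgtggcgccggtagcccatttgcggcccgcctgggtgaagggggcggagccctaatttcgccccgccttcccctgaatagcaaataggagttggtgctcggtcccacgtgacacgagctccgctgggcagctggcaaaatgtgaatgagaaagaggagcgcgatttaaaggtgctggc
Lhx9 promoter, chr1:138842445-138842694, minus strand: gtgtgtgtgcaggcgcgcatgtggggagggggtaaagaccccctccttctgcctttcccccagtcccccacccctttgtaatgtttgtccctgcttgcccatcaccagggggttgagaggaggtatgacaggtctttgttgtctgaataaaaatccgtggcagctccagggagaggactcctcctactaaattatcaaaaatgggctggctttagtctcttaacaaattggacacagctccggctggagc

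In the windows of the 10 members, 12 in all because Prkcd and Slc17a6 have several starts, CTTTGA occurred in 2, those of Prkcd and Shox2 shown above. The other Prkcd window, which is not shown, lacked CTTTGA. It was also absent in Slc17a6, Tnnt1, Rora, Rgs16, Plekhg1 and Zic1, whose ethanol pool 1 was likewise the highest pool. This core occurred in 13.8% of the 32851 windows of all genes. TAATTA, a core bound by many homeodomain proteins, was found in 1 of the 12, at the downstream start of Slc17a6, and in 4.84% of all windows. AGGTCA, the half-site of ROR and other nuclear receptors, was found in 0 of the 12 and in 14% of all windows. Both strands were searched, TAATTA reads the same on either strand, and no 2 of the motifs overlapped in the members. These are matches of letters in a short window and say nothing of binding.

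Across the members, ethanol pool 1 stood apart. Its level topped the other 5 pools in 8 of the 10 genes, all but Gbx2 and Lhx9, and the same 8 genes ran from high to low in the order ethanol pool 1, 2, 3. Over all genes, ethanol pool 1 was the highest of the 6 pools in 14.4% and the ethanol pools had this order in 17.0%. All 3 ethanol pools lay above all 3 saline pools in 5 of the 10 members (Prkcd, Slc17a6, Rora, Rgs16 and Shox2) and in 5.35% of all genes. Because the members were chosen with these values in view, nothing is read from the comparison of these shares. The median difference between the group means was 0.35 over the members and 0.000 over all genes, on the log2 scale, and it was 0.17 without ethanol pool 1.

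**Figure D1:**
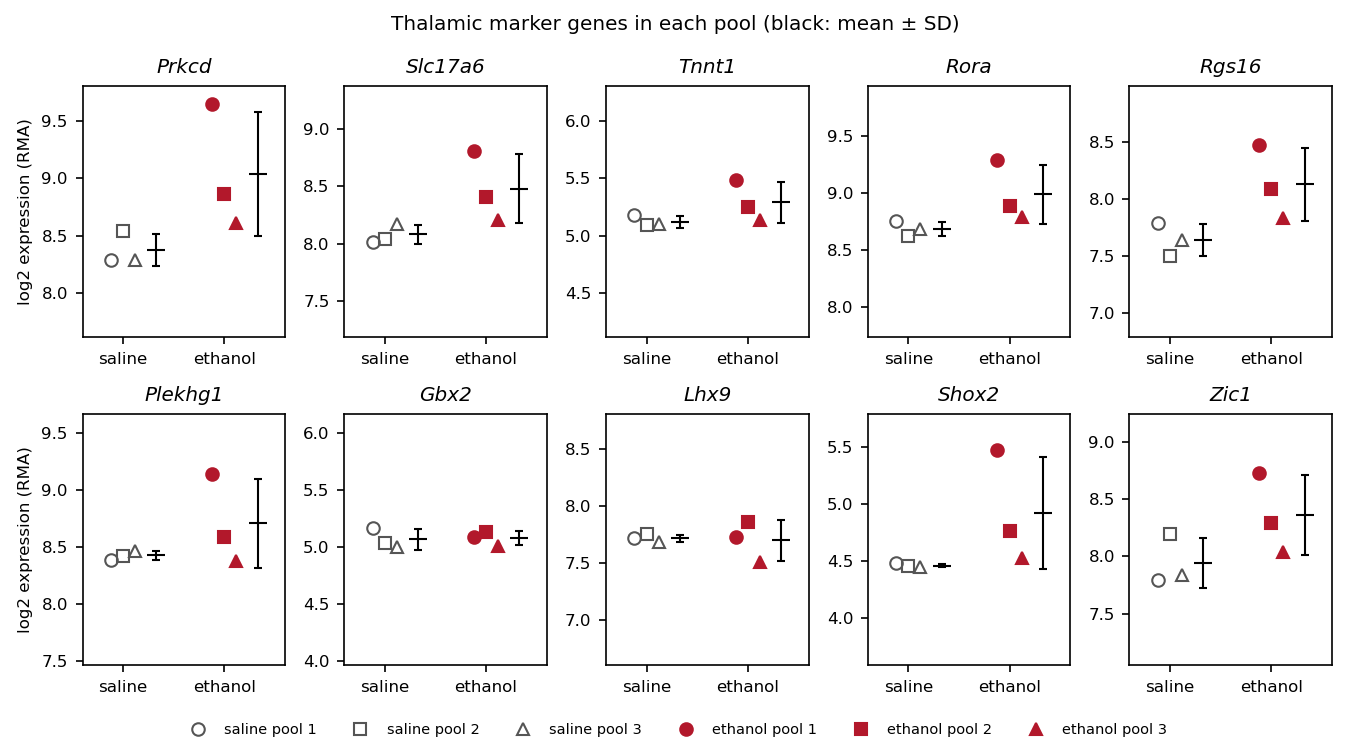
Log2 expression (RMA) of the 10 thalamic markers in each pool, saline as open and ethanol as filled symbols, with black marks for the mean ± SD of 3 pools. Every panel spans the same log2 range; ethanol pool 1 is the highest symbol in 8 panels, while Gbx2 and Lhx9 show mixed groups.

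Of the signalling genes, Prkcd encodes protein kinase C delta, a kinase activated by diacylglycerol. It was at 8.29, 8.54 and 8.29 in saline pools 1, 2 and 3 and at 9.65, 8.86 and 8.61 in ethanol pools 1, 2 and 3 (probe set 10418410). Every ethanol pool lay above every saline pool, although ethanol pool 3 exceeded saline pool 2 only slightly. The group means were 8.37 ± 0.14 and 9.04 ± 0.54 (SD, n = 3 pools), a difference of 0.67 ± 0.22 (SE) or 1.59-fold, which ranked 6 among the 19938 genes. In ethanol pool 1 alone Prkcd stood 2.42-fold above the saline mean, and without that pool the difference was 0.36 ± 0.10.

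Rgs16 encodes a regulator that speeds the shutdown of G protein signals. Its values were 7.79, 7.5 and 7.64 with saline and 8.47, 8.09 and 7.83 with ethanol (probe set 10350733). The groups did not overlap, with ethanol pool 3 just above saline pool 1. The difference was 0.49 ± 0.14 (SE), rank 18 of all genes, and 0.32 ± 0.10 without ethanol pool 1. Plekhg1, which encodes a guanine nucleotide exchange factor, was at 8.39, 8.42 and 8.47 with saline and at 9.14, 8.59 and 8.38 with ethanol (probe set 10367673). Here ethanol pool 3 lay just below all 3 saline pools, and the difference of 0.28 ± 0.16 shrank to 0.06 ± 0.07 without ethanol pool 1.

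Slc17a6, the vesicular glutamate transporter of subcortical excitatory neurons, was at 8.01, 8.04 and 8.17 with saline and at 8.81, 8.41 and 8.21 with ethanol (probe set 10553501). The groups did not overlap, but ethanol pool 3 and saline pool 3 were nearly level. Group means were 8.08 ± 0.08 and 8.48 ± 0.30 (SD, n = 3), and the difference was 0.40 ± 0.13 (SE), or 0.24 ± 0.07 without ethanol pool 1. Tnnt1 encodes slow skeletal troponin T and is a transcript marker of thalamic neurons. Its probe set (10559547) was as dim as receptor genes, at 5.18, 5.09 and 5.10 with saline and 5.49, 5.25 and 5.14 with ethanol. The groups overlapped, ethanol pool 3 lying below saline pool 1, and the difference was 0.17 ± 0.08, or 0.07 ± 0.06 without ethanol pool 1.

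Of the transcription factors, Rora encodes an orphan nuclear receptor that also takes part in the circadian clock. It was at 8.76, 8.63 and 8.69 with saline and at 9.29, 8.89 and 8.79 with ethanol (probe set 10586700). All ethanol pools were higher, ethanol pool 3 by a narrow margin over saline pool 1. The means were 8.69 ± 0.06 and 8.99 ± 0.26 (SD, n = 3), and the difference of 0.30 ± 0.11 (SE) was 0.15 ± 0.06 without ethanol pool 1. Zic1, a zinc finger factor of dorsal neural development, was at 7.79, 8.20 and 7.84 with saline and at 8.73, 8.29 and 8.04 with ethanol (probe set 10595695). Saline pool 2 was the highest saline pool and lay above ethanol pool 3, so the groups overlapped. The difference was 0.41 ± 0.17, with 0.23 ± 0.13 without ethanol pool 1 and 0.54 ± 0.17 without saline pool 2.

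Shox2, a homeobox gene needed in the embryo for limb and heart pacemaker development, had the tightest saline pools of the members, at 4.48, 4.46 and 4.45. Ethanol pools 1, 2 and 3 were at 5.47, 4.76 and 4.53 (probe set 10498568). All ethanol pools were higher, but only ethanol pool 1 lay above 5.37, the level of receptor genes, and that narrowly. The saline pools and ethanol pools 2 and 3 were as dim as receptor genes. The difference was 0.46 ± 0.20 (SE), rank 20 of all genes, and 0.18 ± 0.07 without ethanol pool 1.

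Gbx2 and Lhx9 behaved differently from the other 8. Gbx2, a homeobox gene required for the embryonic thalamus, was at 5.17, 5.04 and 5.0 with saline and 5.09, 5.13 and 5.01 with ethanol (probe set 10356484). The groups were mixed, all values were as dim as receptor genes, and the difference was 0.01 ± 0.06 (SE). Lhx9, a LIM homeobox gene of early thalamic neurons, was at 7.72, 7.76 and 7.69 with saline and at 7.73, 7.86 and 7.51 with ethanol (probe set 10358272). Its lowest and its highest value were both in ethanol pools, and ethanol pool 1 stood level with saline. The difference of -0.02 ± 0.08 became 0.08 ± 0.05 without ethanol pool 3.

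The spread of the members differed between the groups. Within saline, 7 of the 10 markers varied by less than 0.2 on the log2 scale between the highest and lowest pool, and the widest was Zic1 at 0.41. Among ethanol pools the range ran from 0.12 in Gbx2 to 1.04 in Prkcd and was wider than among saline pools in 9 of the 10 markers, against 51.4% of all genes. The ethanol ranges of Prkcd and Shox2 (0.94) ranked 33 and 42 among the 19938 genes. The members were chosen with these values in view, so nothing is read from this share or these ranks. From the saline mean, the members had a median deviation of 0.72 in ethanol pool 1, 0.25 in ethanol pool 2 and 0.09 in ethanol pool 3. The neighbouring ethanol pools 2 and 3 thus differed by less than the step from pool 1 to pool 2.

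On the linear scale, the 8 genes with this order differed in how far the excess dropped from pool to pool. That pool 2 exceeded pool 3 in each of them follows from the order itself. The excess of ethanol pool 2 over the saline mean, as a percentage of the excess of ethanol pool 1, had a median of 30.6%, from 19% in Plekhg1 to 46.8% in Rgs16. For Prkcd it was 28.1%, for Rora 28.8%, for Tnnt1 32.5% and for Zic1 37.2%. In ethanol pool 3 the median was 10.8%, with 18.1% in Rgs16, 12.6% in Prkcd and -4.96% in Plekhg1, which lay below its saline mean there. No error can be attached to these ratios, since each rests on single arrays.

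**Figure D2:**
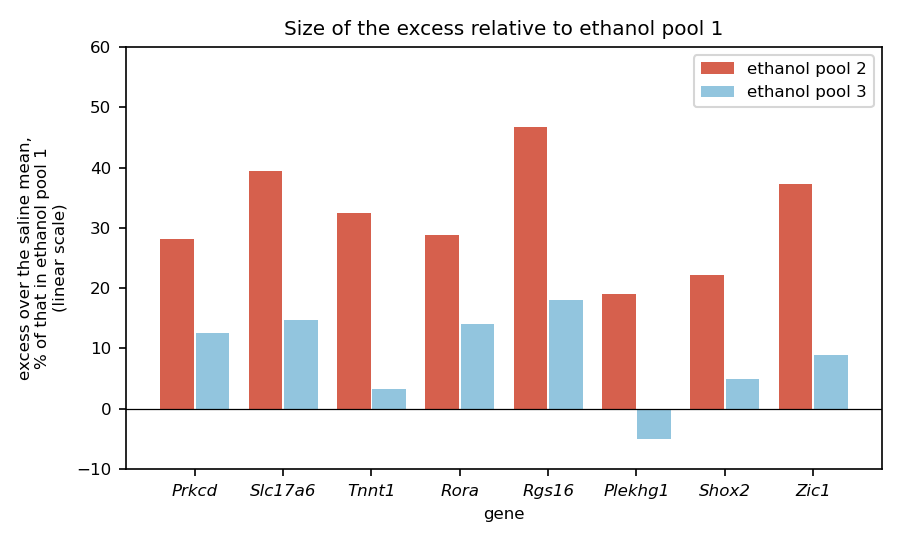
Excess of ethanol pools 2 and 3 over the saline mean on the linear scale, as a percentage of the excess in ethanol pool 1, for the 8 members in which ethanol pool 1 was highest. Bars for pool 2 lie between 19% and 46.8% and those for pool 3 between -4.96% in Plekhg1 and 18.1% in Rgs16.

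A further list held 17 genes known from the thalamus, of which 16 were measured. Of these, 14 had a higher mean with ethanol, against 9994 of all 19938 genes. Of the 16, 9 passed an unadjusted p under 0.05 in limma, all higher with ethanol, against 2.8% of all genes in that direction. None did after Benjamini-Hochberg adjustment in limma over the 23410 probe sets, of which 0 or 0.0% passed (the lowest adjusted p was 0.931), with 1202 at an unadjusted p under 0.05 and 0 after adjustment also in the methods' t-test. The list was written with earlier results known, and 5 of its genes (Tcf7l2, Synpo2, Vipr2, Hcn4 and Slitrk6) were listed by the study from the same arrays, so that its count is not independent evidence. Of the other 11, 4 passed. The median log2 difference was 0.20 over the 16 genes and 0.14 over the 11. Besides the arrays, the study reports higher Tcf7l2, Synpo2 and Vipr2 with ethanol by droplet digital PCR of the samples used for the arrays. That PCR compared individual mice, fewer per group than the 9 behind the arrays. Since it drew on the same samples, it is not independent of the arrays. Those measurements were not analysed here.

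Ramp3, which encodes a partner of the calcitonin receptor, was at 6.16, 6.15 and 6.14 with saline and at 7.61, 6.78 and 6.35 with ethanol. Its pools had the order of the members with no overlap between groups, and the difference was 0.76 ± 0.26 (SE), or 0.41 without ethanol pool 1. Synpo2, an actin-bundling protein, was at 5.33, 5.37 and 5.35 with saline and at 6.71, 5.81 and 5.70 with ethanol. Again the groups were separate, with a difference of 0.72 ± 0.22, or 0.40 without ethanol pool 1. Its saline pools were at or below the level of receptor genes, so that the difference rests on a dim signal in saline.

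Transcription factors of the list included the Wnt effectors Tcf7l2 and Lef1, and Foxp2. Tcf7l2, which is strongly expressed in thalamic neurons, was at 7.98, 7.91 and 7.86 with saline and at 8.91, 8.37 and 8.26 with ethanol. Its groups were well separated (0.59 ± 0.14, SE), and it passed the unadjusted threshold under all alternatives tried, at 0.40 without ethanol pool 1. Lef1 (0.27 ± 0.10) and Foxp2 (0.30 ± 0.13) had the order of the members, but their ethanol pool 3 lay within the saline range. They did not pass without ethanol pool 1, at 0.16 and 0.13, nor without saline pool 2 (0.24 and 0.23) or saline pool 3 (0.26 and 0.32), and Lef1 also not without ethanol pool 2 (0.27). Foxp2 lay close to the threshold and also failed it with quantile normalization, with every row of the table tested and with single-symbol probe sets alone.

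The other genes that passed have varied roles. The peptide receptor gene Vipr2, whose saline pools were likewise below the level of receptor genes, differed by 0.42 ± 0.13 (SE), with 0.25 without ethanol pool 1, and the calcium buffer gene Calb2, also a marker of hippocampal mossy cells in the mouse, by 0.20 ± 0.06. The pacemaker channel gene Hcn4 (0.20 ± 0.08) and the neurite protein gene Slitrk6 (0.23 ± 0.06) passed at the level of receptor genes. In Slitrk6 the highest pool was ethanol pool 3, not 1, and Hcn4 did not pass without ethanol pool 1 (0.12), saline pool 1 (0.21) or saline pool 3 (0.14), nor with every row of the table tested. The most abundant genes that did not pass were Adarb1, an RNA editing enzyme (0.14 ± 0.08), and Ntng1, an axonal adhesion protein (0.19 ± 0.12), both with ethanol pool 1 as the highest. Ethanol pool 1 was the highest of the 6 pools in 13 of the 16 genes, against 14.4% of all genes. This was not particular to thalamic genes: it also held in 15 of 15 choroid plexus and 10 of 12 meningeal genes. In hippocampal principal neuron genes it held in 3 of 18, and in habenula genes in 0 of 10. In the methods' t-test only Tcf7l2 and Slitrk6 of the 16 passed the unadjusted threshold.

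**Figure D3:**
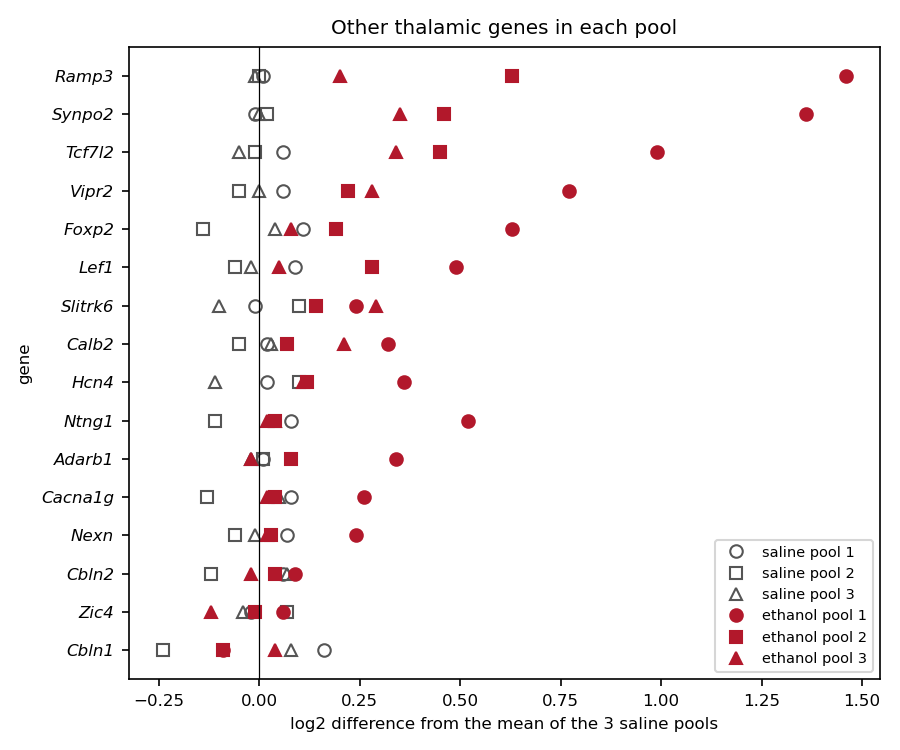
Log2 difference of each pool from the mean of the 3 saline pools for the 16 other thalamic genes, ordered by the difference between group means. Saline pools are open and ethanol pools filled symbols. Ramp3 and Synpo2 reach 1.46 and 1.36 in ethanol pool 1, while Zic4 and Cbln1 show no separation.

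Relatives of the members lay close to their saline level. Of 31 listed (Zic4 is also on the thalamic list), 28 were measured, 2 passed the unadjusted threshold as higher and 0 as lower, against 2.8% and 2.41% of all genes, and their differences ran from -0.11 to 0.14 with a median of -0.01. Slc17a7, the glutamate transporter gene of hippocampal principal neurons, was at 12.03, 12.01 and 12.05 with saline and 12.01, 12.01 and 12.01 with ethanol, a difference of -0.02 ± 0.04 (SE). Prkcb, which encodes protein kinase C beta and is abundant in hippocampal neurons, differed by -0.01 ± 0.04. The 2 that passed were Rgs8 (0.11 ± 0.04), a relative of Rgs16, and Slc17a8 (0.13 ± 0.05), the third vesicular glutamate transporter gene. Their ethanol pools 1, 2 and 3 were at 9.83, 9.81 and 9.79 in Rgs8 and at 5.91, 5.92 and 5.98 in Slc17a8, so that neither had the step from ethanol pool 1 to 2 of the members. Rgs8 did not pass without ethanol pool 1 or saline pool 3, nor Slc17a8 without saline pool 1 or 2 or ethanol pool 2 or 3, with quantile normalization, an intensity trend or array weights, or in the methods' t-test.

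Across the pools, the means of marker lists for other regions and cells followed other orders. The thalamic members had mean deviations from saline of 0.635, 0.261 and 0.054 in ethanol pools 1, 2 and 3, whereas saline ran from -0.018 to 0.015. Hippocampal principal neuron genes lay between -0.031 and 0.041 in all 6 pools, and 0 of 18 passed the unadjusted threshold in limma. Over all genes, 2.8% passed as higher and 2.41% as lower. A count of 0 in a short list, here and below, is therefore near the share over all genes. Habenula genes, from the nucleus next to the thalamus, were highest in saline pool 2 (0.335) and ethanol pool 2 (0.406) and at -0.057 in ethanol pool 1, with 0 of 10 past the threshold. Of the genes of the reticular nucleus, the inhibitory shell of the thalamus, 3 of 4 were measured and 0 passed, with deviations from -0.046 to 0.079.

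The choroid plexus, the epithelium that makes cerebrospinal fluid, gave the largest deviation of these lists. Its 15 measured genes (of 17) were at 1.094, -0.278 and 0.655 in ethanol pools 1, 2 and 3, whereas saline ran from -0.165 to 0.187. Ethanol pool 1 was thus the highest for both lists, but ethanol pool 2 was second for the thalamic members and lowest of all 6 for the choroid plexus. Of the 15, 3 passed the unadjusted threshold, all higher, against 2.8% of all genes in that direction (Kl, 0.52 ± 0.22, Steap1, 0.50 ± 0.20, and Kcne2, 0.45 ± 0.19, SE). Without ethanol pool 1 they were at 0.30, 0.30 and 0.25, and none passed then, nor without ethanol pool 3, saline pool 1 or saline pool 2, nor with array weights, with every row of the table tested or in the methods' t-test. Meningeal genes had the same order of ethanol pools as the choroid plexus, at 0.227, -0.125 and 0.149, and 0 of 12 passed. Striatal genes were at 0.098, -0.052 and 0.058 and 1 of 6 passed (Drd2, 0.18 ± 0.07, SE, but 0.12 without ethanol pool 1 and 0.14 without saline pool 2, where it did not pass, nor in the methods' t-test). Hypothalamic genes lay between -0.073 and 0.144, with 0 of 7 past the threshold, and 5 of the 7 were as dim as receptor genes. Oligodendrocyte genes were at -0.068, -0.198 and -0.034 in the ethanol pools and from -0.070 to 0.071 in the saline pools. Of these genes, 3 of 11 passed as lower, against 2.41% of all genes (Opalin, -0.21 ± 0.07, Mal, -0.15 ± 0.05, and Cldn11, -0.12 ± 0.05, SE). Only Mal of these 3 passed with each array left out in turn: Opalin did not without saline pool 2 or 3 or ethanol pool 2 or 3, nor Cldn11 without saline pool 2 or 3 or ethanol pool 1 or 2. In the methods' t-test neither Opalin nor Cldn11 passed, and Cldn11 also failed with the replicate number as a block and with every row of the table tested. The part of these other lists in the differences of the thalamic members was not tested.

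**Figure D4:**
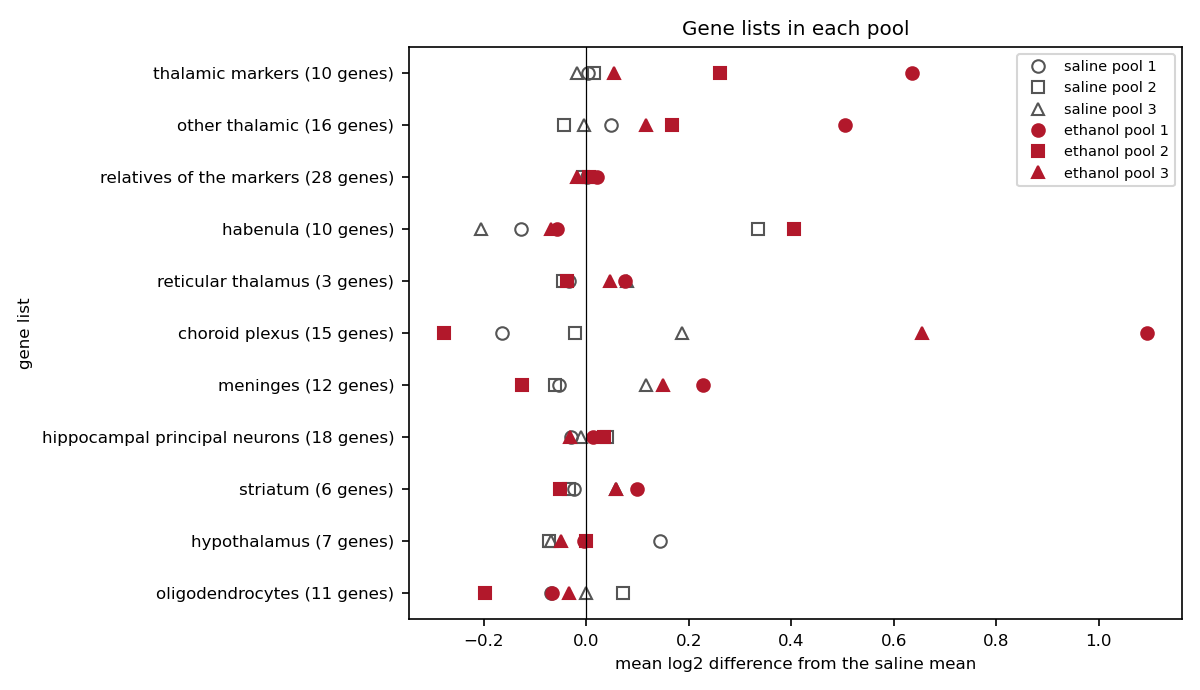
Mean log2 difference from the saline mean for each gene list and pool. Saline pools are open and ethanol pools filled symbols. The thalamic markers reach 0.635 in ethanol pool 1 and 0.261 in ethanol pool 2, the choroid plexus 1.094 and -0.278, the habenula -0.057 and 0.406, and hippocampal principal neurons stay between -0.031 and 0.041.

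Genes whose pools most resembled the mean of the 10 members were found by the root mean square distance between their log2 deviations over the 6 arrays. The 10 nearest were Lef1, Foxp2, Zfhx3, Amotl1, Plcb4, Inpp4b, Epn3, Zdhhc22, Vipr2 and Zfp263, at distances from 0.074 to 0.117, against a median of 0.288 over all other genes. A gene level across all 6 pools would lie at 0.281, close to that median. The distance depends on size as well as order: Ramp3 and Synpo2, with the order of the members but larger deviations, lay at 0.371 and 0.332. Of the 10 nearest, 3 were already on the list of other thalamic genes. Plcb4, a phospholipase C that responds to metabotropic glutamate receptors, was at 8.60, 8.62 and 8.52 with saline and at 9.42, 8.78 and 8.69 with ethanol. Zfhx3, a large zinc finger homeobox factor, was at 6.57, 6.44 and 6.39 with saline and at 6.95, 6.64 and 6.5 with ethanol, so that ethanol pool 3 overlapped the saline pools. Inpp4b, a phosphoinositide phosphatase gene, was at 6.90, 6.99 and 6.97 with saline and at 7.41, 7.10 and 7.07 with ethanol. These genes were selected for their likeness, and their values are given without a test.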

How the data were processed

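Total RNA from pooled hippocampi was hybridised to Affymetrix Mouse Gene ST arrays. The authors ran RMA (background correction, quantile normalization and probe summary), and the log2 values they deposited were used unchanged. For the RMA version and the annotation build: not given in the sources used here. Precision is limited by the number of arrays. The median standard error was 0.049 over the 23410 probe sets tested, but it was larger in the members, from 0.06 in Gbx2 to 0.22 in Prkcd.

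Of 35556 probe sets, 21789 carry 1 symbol in the platform annotation, 1621 carry several, and 12146 lack one. Those with any symbol, 23410, were fitted with limma 3.58.1 in R 4.3.3 (lmFit and eBayes, two-sided, no covariate, after the ANOVA of the methods), with Benjamini-Hochberg adjustment over all of them. The brightest probe set was used for each of 19938 genes, and 99.6% of gene identifiers were found in a RefSeq table, with 0 symbols to update. The procedure was tested on simulated data. Exact permutation of 6 arrays, whose smallest p is 0.1, was not run.

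The members and gene lists were chosen with earlier results of these data known. Named besides the members were the other thalamic genes past the unadjusted threshold and the 2 most abundant others, up to 3 passing and the 2 most abundant genes of each further list, and the 10 genes nearest in pattern. Some genes that this rule names are given only within their list, and Zic4 and Cbln1 were named after their values were seen. Listed genes with no probe set under that single symbol were not analysed here. Alternatives were a replicate block, median centring, quantile normalization, other sets of probe sets, an intensity trend, array weights, the methods' t-test and each array left out. The methods' t-test was an ordinary t-test without moderation, standing for the ANOVA that the methods name. It did not reproduce all p-values that the study lists. Figures were drawn with matplotlib 3.10.9.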

Additional observations from a re-analysis of the deposited data

How the results depend on the processing

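The median difference of the thalamic members was 0.35 with median centring, quantile normalization and array weights, 0.40 over the members above the level of receptor genes, and 0.17 to 0.49 with 1 array left out, lowest without ethanol pool 1. Each member has 1 probe set, so the mean over probe sets gave the same value. The sign of Gbx2 turned without ethanol pool 2, saline pool 2 or saline pool 3 (at -0.02, -0.01 and -0.03) and with quantile normalization (-0.01), that of Lhx9 without ethanol pool 3 (0.08) and with array weights (0.01), and neither exceeded its spread between pools. Probe sets past an unadjusted p under 0.05 numbered 1202 as reported, 1969 over all rows of the value table, 494 above the median level, where fewer were tested, and 834 to 1484 with 1 array left out. None passed the adjusted threshold under any alternative run. Of the 16 other thalamic genes, the unadjusted threshold was passed by 9, by 2 when the methods' t-test was used, by 2 above the median level, where fewer were tested, and by 6 to 10 with 1 array left out. Replicate numbers are shared by the groups, and littermates were split between the treatments, but no source used here ties a pool number to litters, and same-numbered pools did not deviate together (correlations of deviations of -0.049, -0.022 and 0.059), so they were not taken as pairs. With the replicate number as a block, 1153 probe sets and 9 other thalamic genes passed, and the members' median difference was 0.35. Medians of the comparison lists moved by less than their spread between pools under each alternative run, with the choroid plexus at 0.20 to 0.85 with 1 array left out. With 3 pools per group, differences of the size of the spread between pools cannot be resolved.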
